A study of Caenorhabditis elegans with 15 samples.

Results

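The genes described here are 59 genes of DNA replication, cell cycle control and mitosis in *C. elegans*, out of 46911 genes in the count table. They were chosen by name, from a written list of WormBase symbols, each matched to its gene ID in the table. By role they comprised 13 replication genes, 10 cyclins and Cdks, 2 Cdk inhibitors, 3 Rb and E2F genes, 2 mitotic kinases, 4 chromosomal passenger genes, 4 spindle checkpoint genes, 8 kinetochore and centromere genes, 4 condensin genes, 3 central spindle genes and 6 centrosome genes. Of these, 17 lie on chromosome I, 10 on II, 15 on III, 7 on IV, 9 on V and 1 on X.

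RNA was sequenced from whole, starved L1 larvae, with 15 libraries in 5 groups of 3 biological replicates, each from its own plate. EFF-1 is the fusogen that joins most epidermal cells of the worm, and the study compared *eff-1* mutants with WT to ask what blocked cell fusion does to the transcriptome. P37Stop was made by CRISPR as stop codons in the first exon of *eff-1*, in animals that carry *kuIs46* [*ajm-1::GFP*; *unc-119*(+)] and *bqSi640*, a reporter driven by the epidermal *dpy-7* promoter, and it was sequenced in batch 2 together with WT batch 2. P183L, the allele *hy21* in strain BP76, and S441L, the allele *oj55* in strain WH171, are missense mutants from mutagenesis screens, were described as reduced rather than absent in function, and were sequenced in batch 1 together with WT batch 1. The methods give both of these strains the array *jcIs1*, which holds the dominant *rol-6*(su1006), a working copy of *unc-29* and an AJM-1 reporter, and name N2 as WT. Both strains, as products of mutagenesis, are expected to carry background mutations. Each mutant is a single strain, so allele and strain background cannot be told apart. All groups came from embryos of bleached adults left to hatch without food, and by the authors' account the suspensions were inspected and held no viable unhatched embryos.

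A dividing cell licenses its replication origins with ORC, CDC-6, CDT-1 and the MCM helicase, copies its DNA, and then enters mitosis when Cdk1 is bound by B-type cyclins. Kinetochores, the chromosomal passenger complex, condensin, centrosomes and the central spindle then separate the chromosomes and the cells, under the watch of the spindle checkpoint. In a hatched L1 without food the postembryonic blast cells and the germline precursors do not divide, and *cki-1*, an inhibitor of Cdks, is a part of this arrest.

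Total counts per library lay between 35858217 and 47820215. Levels below are CPM, which are counts scaled to library size, here with TMM factors over all 15 libraries, in the order of replicates 1, 2 and 3 of each group, and TPM where genes are compared with each other. Log2 fold changes come from a separate fit for each comparison, with its own TMM scaling. A gene was called a DEG at a Benjamini-Hochberg adjusted p below 0.05 in edgeR's quasi-likelihood test, with a log2 fold change above 0.5 (upregulated) or below -0.5 (downregulated). *eff-1* itself stood at 16.7, 19.5 and 18.7 CPM in P37Stop, against 23.9, 29.2 and 29 CPM in WT batch 2 (log2 fold change -0.52 ± 0.12 SE, adjusted p = 0.0104), while the codon changes of P183L and S441L leave no trace in gene counts. The gene *unc-119*, carried by *kuIs46*, averaged 1050 CPM in P37Stop and 856 CPM in WT batch 2. It averaged 53.5 CPM in P183L, 25 CPM in S441L and 27.6 CPM in WT batch 1, so the WT groups differed 32.3-fold in this gene. The gene *ajm-1*, also on *kuIs46*, averaged 2540 CPM in P37Stop and 2140 CPM in WT batch 2. In batch 1 it averaged 1040 CPM in P183L, 4170 CPM in S441L and 738 CPM in WT batch 1. The WT groups thus differed 3.01-fold in *ajm-1*. Whether WT batch 2 carries the array was not tested. The gene *rol-6*, carried by *jcIs1*, averaged 1.68 CPM in P183L and 432 CPM in S441L, against 0.513 CPM in WT batch 1. The gene *unc-29*, also on *jcIs1*, averaged 20.3 CPM in P183L, against 12.9 CPM in WT batch 1, and was 14.3-fold higher in S441L than in WT batch 1. P183L thus lacked the high levels of the other strain said to carry this array.

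In both WT groups the 59 genes were expressed at low levels. Their median was 7.92 TPM in WT batch 2 and 7.55 TPM in WT batch 1, below the medians of 14.6 and 15.5 TPM of all genes above 1 TPM in these groups. The highest of them in both WT groups was the inhibitor *cki-1*, at 68.1 TPM in WT batch 2 and 66.4 TPM in WT batch 1, and the lowest was the B-type cyclin gene *cyb-2.1*, at 1.61 and 0.833 TPM. Together they took 0.0629% of TPM in WT batch 2 and 0.0667% in WT batch 1. In P37Stop the share was 0.113%, the median 12.8 TPM, and the highest gene *rnr-2* at 102 TPM. In P183L the share was 0.933%, the median 113 TPM, and the highest gene the B-type cyclin gene *cyb-3* at 1190 TPM. In S441L the share was 0.0847%, the median 10.5 TPM, and *cki-1* remained the highest gene at 74.3 TPM.

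Replicates differed more in batch 2. The median coefficient of variation of the 59 genes was 13.3% in P37Stop and 14.8% in WT batch 2, against 2.1% in P183L, 4.65% in S441L and 5.6% in WT batch 1. In P37Stop replicate 1 was the lowest, with a mean log2 deviation from the group of -0.19, against 0.13 and 0.07 in replicates 2 and 3. In WT batch 2 replicate 1 was the highest of its group for 42 of the 59 genes, with mean log2 deviations of 0.24, -0.06 and -0.18 in replicates 1, 2 and 3. The P37Stop results are therefore given with the calls that were lost when 1 library was left out.

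In P37Stop, 24 of the 59 genes were upregulated and none was downregulated. That is 40.7% of the genes, against 12.7% of all 15780 genes tested that were upregulated and 5.9% that were downregulated. Their median log2 fold change was 0.46, against 0.02 over all genes tested, and 49 of the 59 were above 0. The genes that rose most were mitotic, with the B-type cyclin genes *cyb-3* and *cyb-1* at 4.65-fold and 3.98-fold and the Cdc20 gene *fzy-1* at 3.99-fold, followed by the helicase gene *mcm-7* at 3.00-fold and the centromeric histone gene *hcp-3* at 2.94-fold. In 22 of the 24 the libraries of P37Stop and WT batch 2 did not overlap, the exceptions being *plk-1* and *csc-1*. The share without overlap among all upregulated genes was not computed, so this count has no background. By edgeR at an unadjusted p below 0.05, 35 were above 0 and 1 below. The share of all genes at an unadjusted p below 0.05 was not computed, here or in any comparison below, so such counts have no background. DESeq2 called 26 up and 1 down, against 13.9% and 6.67% of all genes. Scaled by total counts, which raised the median of all genes by 0.24, 37 were upregulated, against 20% of all genes. The number of upregulated genes lay between 18, without WT batch 2 replicate 2, and 29, without P37Stop replicate 1.

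**Figure D1:**
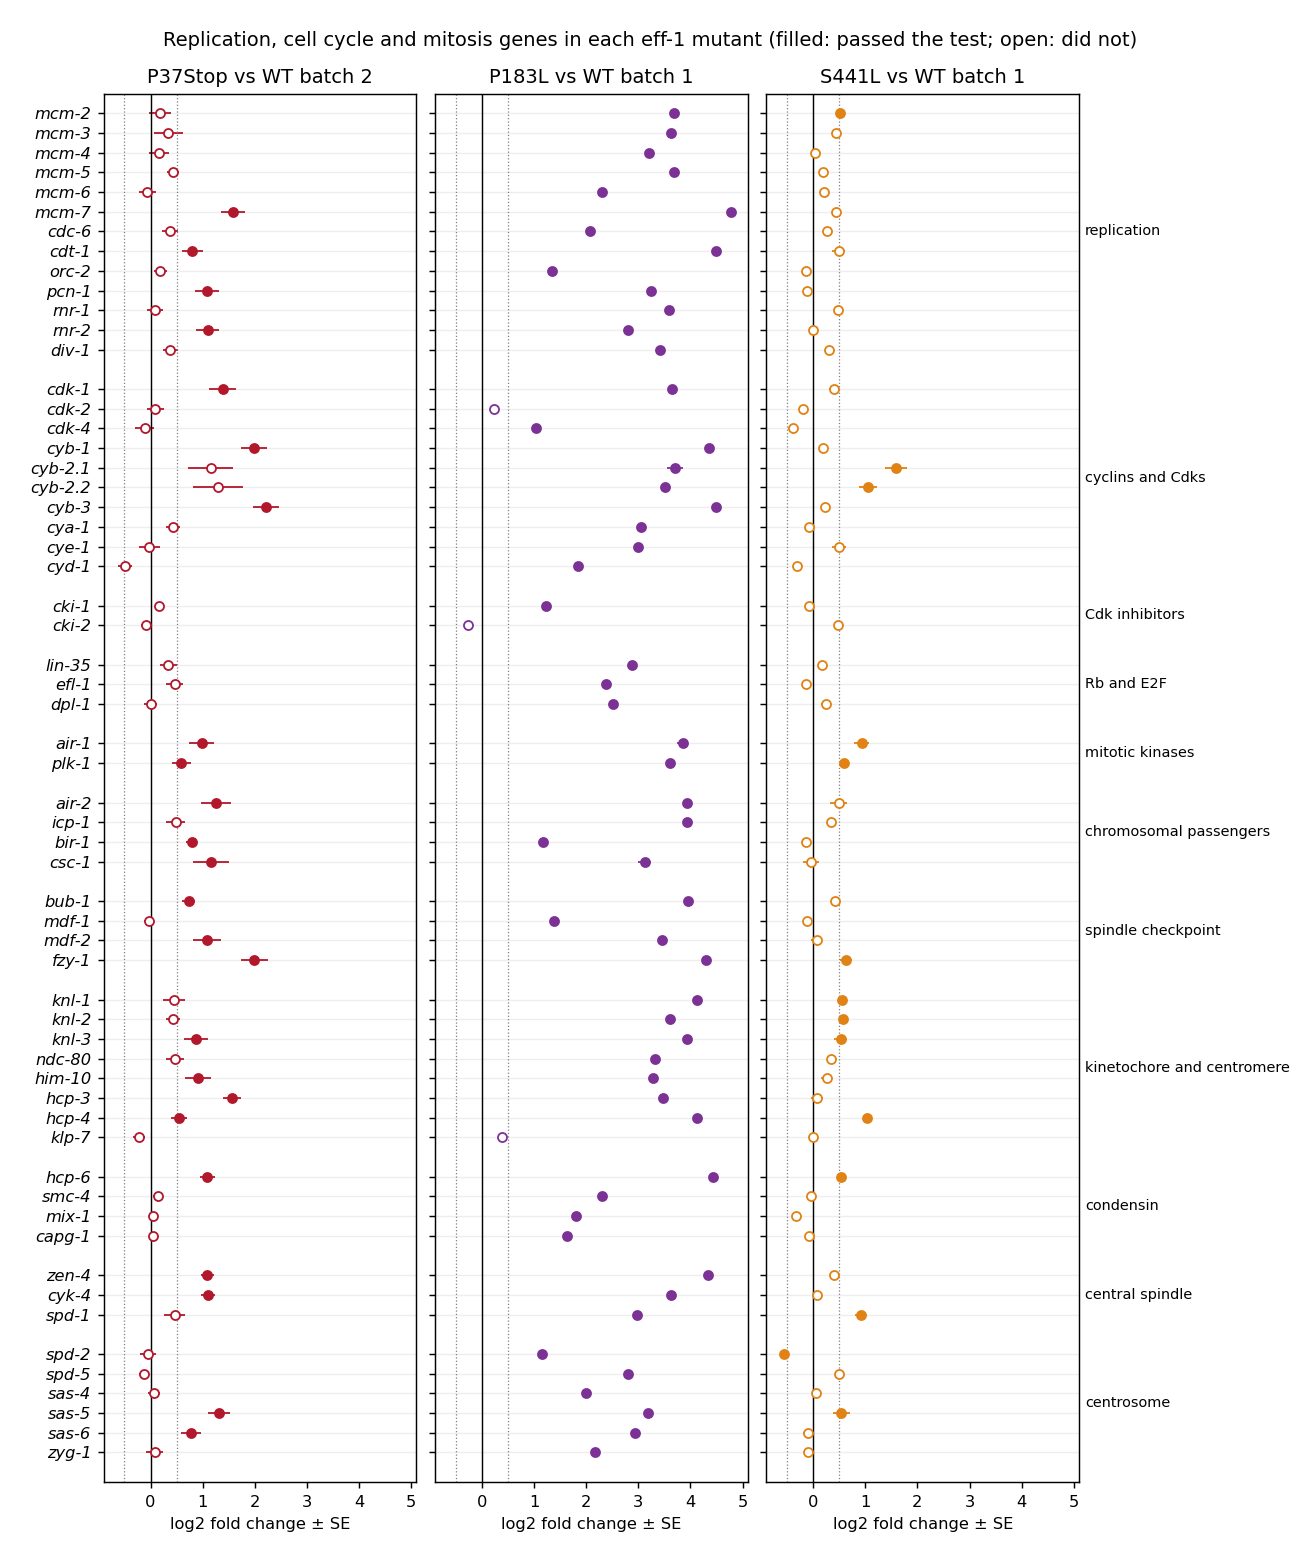
Log2 fold change (x axis) with its SE (bars) of each of the 59 genes (rows, grouped by role as named at the right) in P37Stop against WT batch 2, in P183L against WT batch 1 and in S441L against WT batch 1. Filled points passed the test and open points did not, and dotted lines mark log2 fold changes of -0.5 and 0.5. In P37Stop 24 points are filled and the highest is *cyb-3* at 2.22, in P183L 56 are filled and the highest is *mcm-7* at 4.78, and in S441L 14 are filled, of which *spd-2* at -0.55 lies below 0.

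Among the replication genes, 4 of 13 were upregulated in P37Stop. The helicase subunit gene *mcm-7* (chromosome V, 4347166 to 4349768, plus strand, WBcel235) stood at 29.2, 48 and 54.4 CPM in P37Stop, against 18.9, 15.8 and 11 CPM in WT batch 2. Every P37Stop library was above every WT library, and the log2 fold change was 1.58 ± 0.23 SE (adjusted p = 0.000707). The other 5 MCM genes, whose products form 1 hexamer with MCM-7, had log2 fold changes from -0.06 (*mcm-6*) to 0.43 (*mcm-5*), and none passed the test. In *mcm-3*, for instance, the levels were 15.7, 34.4 and 33.8 CPM in P37Stop, against 31.5, 19.7 and 17.7 CPM in WT batch 2, with overlapping groups.

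The gene *rnr-2* encodes the small subunit of ribonucleotide reductase, which makes deoxyribonucleotides. It stood at 81.4, 114 and 124 CPM in P37Stop, against 73.3, 44.3 and 37.8 CPM in WT batch 2 (log2 fold change 1.1 ± 0.22 SE, adjusted p = 0.00441). The large subunit gene *rnr-1* did not pass the test, at 29.2, 39.8 and 38.6 CPM in P37Stop, against 42.2, 31.5 and 31.5 CPM in WT batch 2, with overlap between the groups. PCNA, the sliding clamp of the polymerases, is encoded by *pcn-1*, which rose by 1.09 ± 0.23 SE on the log2 scale (adjusted p = 0.00536). The licensing factor gene *cdt-1* rose by 0.80 ± 0.20 SE (adjusted p = 0.0127), and without WT batch 2 replicate 2 its adjusted p was 0.0548. The other licensing genes *cdc-6* and *orc-2* had log2 fold changes of 0.37 and 0.19 and did not pass.

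Of the cyclin and Cdk genes 3 of 10 were upregulated in P37Stop, all 3 of them mitotic. The gene *cyb-3* (chromosome V, 15395696 to 15397353, plus strand), a B-type cyclin needed for chromosome segregation in the embryo, stood at 61.6, 84.0 and 91.5 CPM in P37Stop, against 26, 15.5 and 11.6 CPM in WT batch 2. No library of P37Stop came near those of WT batch 2, with a log2 fold change of 2.22 ± 0.25 SE, a 4.65-fold difference (adjusted p = 0.000138). The gene *cyb-1* (chromosome IV, 10735216 to 10737177, plus strand) stood at 36.5, 52.5 and 54.8 CPM in P37Stop, against 18, 11.6 and 7.96 CPM in WT batch 2, also without overlap (log2 fold change 1.99 ± 0.25 SE, adjusted p = 0.000285). Against the WT group of the other batch, *cyb-3* and *cyb-1* were still upregulated in P37Stop, by 1.1 and 1.24 on the log2 scale.

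Their kinase partner *cdk-1* (chromosome III, 9747472 to 9748852, plus strand) stood at 20.7, 27.1 and 33.4 CPM in P37Stop, against 15.7, 8.50 and 8.19 CPM in WT batch 2 (log2 fold change 1.38 ± 0.25 SE, adjusted p = 0.00226), again with no overlap. The near-identical paralogs *cyb-2.1* and *cyb-2.2* share reads, so their values are uncertain. Summed, they stood at 5.46, 15.9 and 11.4 CPM in P37Stop, against 7.49, 4.63 and 2.33 CPM in WT batch 2, with overlap, and neither passed the test alone. Of the G1 and S phase genes, *cye-1* (cyclin E), its partner *cdk-2* and *cdk-4* had log2 fold changes of -0.02, 0.09 and -0.11. The D-type cyclin gene *cyd-1* had the lowest value of all 59 genes, at 17.3, 15.3 and 21.1 CPM in P37Stop, against 24.6, 28.3 and 25.9 CPM in WT batch 2. Every P37Stop library was below every WT library, but the log2 fold change of -0.49 ± 0.13 SE (adjusted p = 0.0186) was just inside the limit of -0.5. The A-type cyclin gene *cya-1*, at 0.43 ± 0.13 SE (adjusted p = 0.0258), likewise stayed inside the limit on the fold change.

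Neither Cdk inhibitor gene passed the test in P37Stop. *cki-1* stood at 56.1, 51.3 and 56.6 CPM in P37Stop, against 49.4, 52.7 and 50.7 CPM in WT batch 2 (log2 fold change 0.16 ± 0.084 SE). *cki-2* stood at 26.1, 23.5 and 26.1 CPM in P37Stop, against 30, 27.7 and 26.1 CPM in WT batch 2 (-0.09 ± 0.10 SE). The replicates of *cki-1* and *cki-2* were close in both groups, so that these values had small errors. The Rb gene *lin-35*, the E2F gene *efl-1* and the DP gene *dpl-1*, which together repress cell cycle genes in resting cells, had log2 fold changes of 0.34, 0.46 and 0.00, and none passed.

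The kinases of mitosis rose in P37Stop. The Aurora A gene *air-1*, which acts at centrosomes, rose by 0.98 ± 0.24 SE (adjusted p = 0.0110), and the Polo-like kinase gene *plk-1* by 0.59 ± 0.18 SE (adjusted p = 0.0295). Neither call held without WT batch 2 replicate 2, where the adjusted p was 0.0507 for *air-1* and 0.129 for *plk-1*, nor without WT batch 2 replicate 3, at 0.0549 and 0.127. *plk-1* was also lost without P37Stop replicate 2, at 0.117.

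Of the chromosomal passenger complex, which corrects chromosome attachment and guides cytokinesis, 3 of 4 genes rose. The survivin gene *bir-1* was the steadiest, at 34.4, 32.0 and 29.1 CPM in P37Stop, against 19.5, 18.7 and 19.3 CPM in WT batch 2 (log2 fold change 0.79 ± 0.11 SE, adjusted p = 0.000427). No library of either group came near the other group. The Aurora B gene *air-2* rose by 1.25 ± 0.29 SE (adjusted p = 0.00897) and the gene of the complex member *csc-1* by 1.16 ± 0.35 SE (adjusted p = 0.0307). The *csc-1* call was lost without WT batch 2 replicate 2 (adjusted p = 0.127) or replicate 3 (0.124), and without P37Stop replicate 2 (0.125) or replicate 3 (0.0502). The INCENP gene *icp-1*, at 0.48 ± 0.18 SE, did not pass.

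Of the spindle checkpoint genes 3 of 4 rose. The Cdc20 gene *fzy-1* (chromosome II, 5500770 to 5503912, plus strand), which activates the anaphase-promoting complex and is held back by the checkpoint, stood at 19.7, 23.3 and 25.5 CPM in P37Stop, against 8.21, 6.22 and 3.41 CPM in WT batch 2. All P37Stop libraries were far above all WT libraries (log2 fold change 1.99 ± 0.26 SE, adjusted p = 0.000334). The checkpoint kinase gene *bub-1* rose by 0.73 ± 0.12 SE (adjusted p = 0.00149), and the Mad2 gene *mdf-2* by 1.09 ± 0.27 SE (adjusted p = 0.0115). The *mdf-2* call was lost without WT batch 2 replicate 2 (adjusted p = 0.06) or replicate 3 (0.0518). The Mad1 gene *mdf-1* did not pass, at 31.7, 30.1 and 35 CPM in P37Stop, against 33.2, 34.8 and 34.9 CPM in WT batch 2 (-0.03 ± 0.096 SE).

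At the kinetochore and centromere 4 of 8 genes rose in P37Stop. The CENP-A gene *hcp-3* (chromosome III, 9615306 to 9616470, minus strand), the histone that marks the centromeres, stood at 13.4, 16.4 and 15 CPM in P37Stop, against 5.92, 5.51 and 4.41 CPM in WT batch 2. The groups were well apart (log2 fold change 1.56 ± 0.18 SE, adjusted p = 0.000142). The Nuf2 gene *him-10* rose by 0.91 ± 0.24 SE (adjusted p = 0.0167), but against WT batch 1 its value of 0.47 was inside the limit. The CENP-C gene *hcp-4* rose by 0.54 ± 0.15 SE (adjusted p = 0.0238), a call lost without WT batch 2 replicate 1 (adjusted p = 0.0707) or replicate 2 (0.0795) and without P37Stop replicate 2 (0.0814). The gene *knl-3* rose by 0.87 ± 0.23 SE (adjusted p = 0.0157), a call lost without WT batch 2 replicate 2 (0.0574) or replicate 3 (0.0623). Its value is uncertain, since 57.5% of its exon bases lie on genes of the other strand, T10B5.3 and T10B5.4, and no source used here says that counting used strand. *knl-1*, *knl-2* and *ndc-80*, at 0.45, 0.43 and 0.47, and the microtubule depolymerase gene *klp-7*, at -0.22, did not pass.

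Of condensin, 1 of 4 genes rose in P37Stop. It was *hcp-6*, a subunit gene of condensin II, at 19.2, 20.5 and 19.4 CPM in P37Stop, against 11, 9.48 and 8.39 CPM in WT batch 2 (log2 fold change 1.09 ± 0.14 SE, adjusted p = 0.000348), with no overlap. The genes *smc-4* and *mix-1*, which encode the SMC pair shared by the condensins, and *capg-1* had log2 fold changes of 0.14, 0.05 and 0.05. Of the central spindle genes, both centralspindlin genes rose. The kinesin gene *zen-4* stood at 22.4, 26.2 and 28.6 CPM in P37Stop, against 13.3, 12.1 and 12.3 CPM in WT batch 2 (log2 fold change 1.09 ± 0.13 SE, adjusted p = 0.000192). The RhoGAP gene *cyk-4* rose by 1.1 ± 0.14 SE (adjusted p = 0.000285), while the microtubule bundler gene *spd-1*, at 0.46 ± 0.21 SE, did not pass.

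Of the centrosome genes 2 of 6 rose, both of them needed to assemble the central tube of the new centriole. *sas-5* stood at 11.8, 14.2 and 9.70 CPM in P37Stop, against 5.97, 4.58 and 4.35 CPM in WT batch 2 (log2 fold change 1.32 ± 0.21 SE, adjusted p = 0.00111), without overlap. *sas-6* rose by 0.78 ± 0.19 SE (adjusted p = 0.0110), a call lost without WT batch 2 replicate 3 (adjusted p = 0.0527). The centriole gene *sas-4*, the kinase gene *zyg-1* and the pericentriolar scaffold genes *spd-2* and *spd-5* had log2 fold changes of 0.07, 0.08, -0.05 and -0.13.

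**Figure D2:**
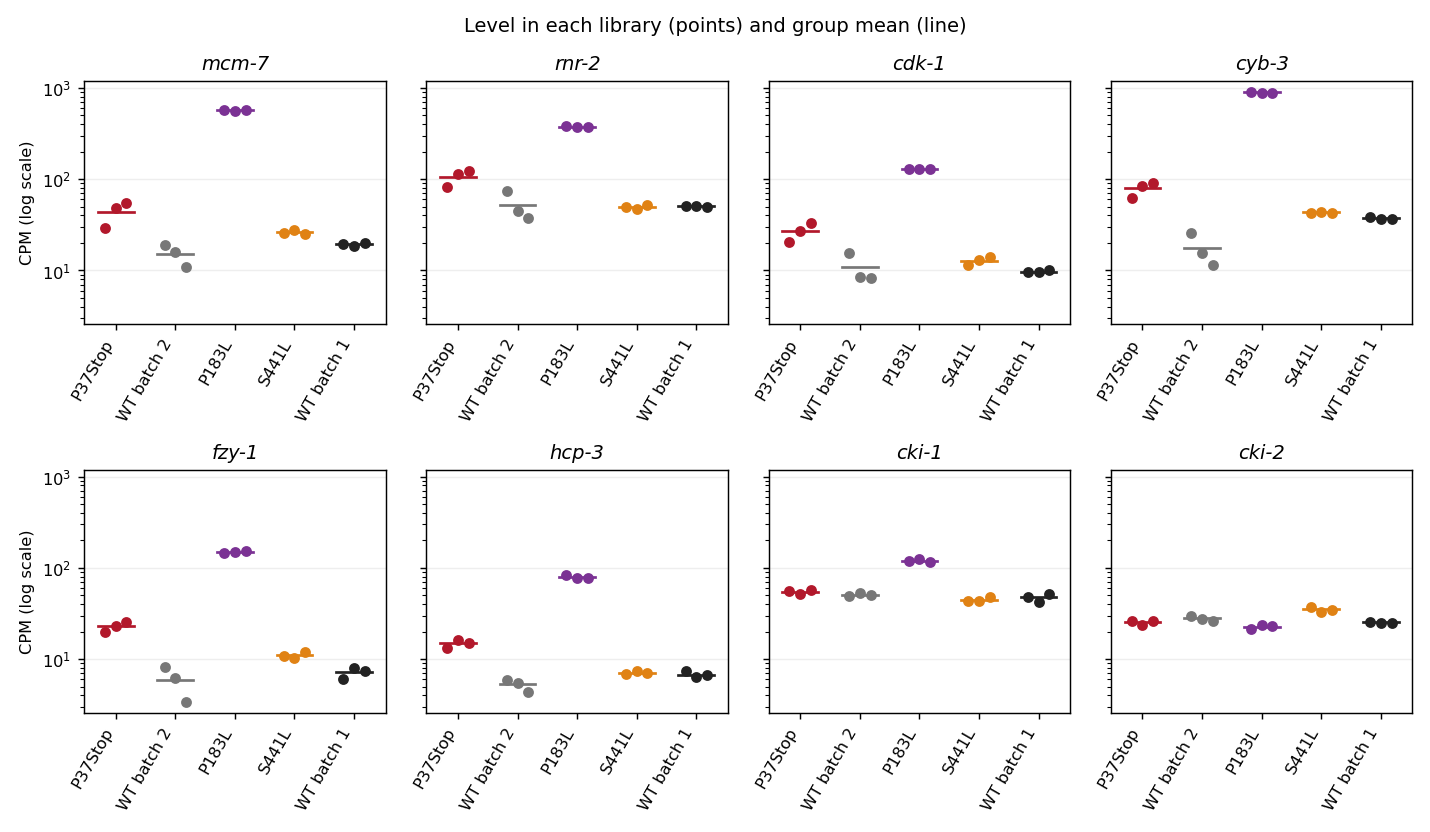
Level in CPM (y axis, log scale) of 8 of the genes in each library (points) of P37Stop, WT batch 2, P183L, S441L and WT batch 1 (x axis), with the group mean as a line. The points of P183L lie far above all others for *mcm-7*, *cdk-1*, *cyb-3*, *fzy-1* and *hcp-3*, those of P37Stop lie above WT batch 2 for the same genes and for *rnr-2*, and those of *cki-2* lie between 21.2 and 37.6 CPM in all 15 libraries.

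In P183L, 56 of the 59 genes were upregulated and none was downregulated. That is 94.9% of the genes, against 40.2% of all 15884 genes tested that were upregulated and 40.2% that were downregulated. The median log2 fold change was 3.25, or 9.5-fold, against 0.02 over all genes. Of the 59 genes 47 rose more than 4-fold, 35 more than 8-fold and 9 more than 16-fold, while 10.4% of all genes were above 8-fold. The libraries of P183L and WT batch 1 did not overlap for any of the 56, again without a share for all upregulated genes. The count stayed at 56 with each library left out in turn. By edgeR at an unadjusted p below 0.05, 58 were above 0 and 1, *cki-2*, was below. DESeq2 called 56 up and 0 down, against 39% and 40.3% of all genes.

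Every replication gene rose in P183L, from 2.55-fold in *orc-2* to 27.5-fold in *mcm-7*. *mcm-7* stood at 567, 562 and 571 CPM in P183L, against 19.6, 18.5 and 20.2 CPM in WT batch 1 (log2 fold change 4.78 ± 0.047 SE, adjusted p = 7.92e-16). The other 5 MCM genes rose by 2.30 (*mcm-6*) to 3.69 (*mcm-5*) on the log2 scale. The licensing factor gene *cdt-1* had the next highest fold change of the replication genes, at 174, 174 and 174 CPM in P183L, against 7.31, 8.21 and 6.55 CPM in WT batch 1 (4.49 ± 0.064 SE, adjusted p = 7.06e-15). Replicates of P183L were nearly equal for both genes.

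Of the mitotic cyclins, *cyb-3* stood at 899, 887 and 887 CPM in P183L, against 38.3, 36.8 and 36.5 CPM in WT batch 1 (log2 fold change 4.50 ± 0.045 SE, adjusted p = 8.58e-16). *cyb-1* rose by 4.36 ± 0.055 SE (adjusted p = 2.72e-15) and *cdk-1* by 3.64 ± 0.047 SE (adjusted p = 3.24e-15). The pair *cyb-2.1* and *cyb-2.2* summed to 39.5, 38.5 and 38.1 CPM in P183L, against 3.35, 2.89 and 2.90 CPM in WT batch 1, with no overlap. The cyclin genes of G1 and S phase rose too, *cye-1* by 3.00, *cya-1* by 3.05 and *cyd-1* by 1.84, and *cdk-4* by 1.03.

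The 3 genes that were not called in P183L were *cdk-2*, *klp-7* and *cki-2*. *cdk-2* stood at 25, 24.1 and 25 CPM in P183L, against 19.5, 19.2 and 21.1 CPM in WT batch 1 (log2 fold change 0.23 ± 0.060 SE, adjusted p = 0.00326). *klp-7* stood at 56.8, 59.4 and 58.2 CPM in P183L, against 40.4, 42.8 and 43.6 CPM in WT batch 1 (0.38 ± 0.047 SE, adjusted p = 7.09e-06). For both genes P183L was higher in every library by less than the limit on the fold change. *cki-2* was the only one of the 59 below WT, at 21.2, 23.4 and 22.8 CPM in P183L, against 25.8, 25 and 25 CPM in WT batch 1 (-0.26 ± 0.059 SE, adjusted p = 0.00114). Scaled by total counts, which raised the median of all genes by 0.53, these values were 0.73 for *cdk-2*, 0.88 for *klp-7* and 0.24 for *cki-2*, so that the sign of *cki-2* turned and the first 2 passed the test. The other inhibitor gene *cki-1* was upregulated, at 118, 124 and 116 CPM in P183L, against 48.3, 42.4 and 51.8 CPM in WT batch 1 (1.24 ± 0.064 SE, adjusted p = 1.03e-09).

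Across the other roles in P183L the median log2 fold change was 2.51 for the Rb and E2F genes, 3.72 for the mitotic kinases, 3.53 for the chromosomal passengers, 3.70 for the checkpoint, 3.54 for the kinetochore and centromere, 2.05 for condensin, 3.63 for the central spindle and 2.49 for the centrosome. Within a complex the sizes differed. *hcp-6* stood at 284, 284 and 286 CPM in P183L, against 12.5, 12.5 and 12.4 CPM in WT batch 1 (4.43 ± 0.042 SE, adjusted p = 7.42e-16), while the condensin genes *smc-4*, *mix-1* and *capg-1* rose by 2.30, 1.81 and 1.64. Among the chromosomal passenger genes *air-2* and *icp-1* rose by 3.93 and 3.94 and *bir-1* by 1.18. Among the checkpoint genes *fzy-1* rose by 4.29 and *mdf-1* by 1.38. These differences between genes were not tested.

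In S441L, 13 of the 59 genes were upregulated and 1 was downregulated. The 13 are 22% of the genes, against 24.2% of all 15685 genes tested that were upregulated and 15.8% that were downregulated, so the share that rose was close to that of all genes. The median log2 fold change was 0.24, against 0.03 over all genes. Scaled by total counts, which raised the median of all genes by 0.21, 26 of the 59 were upregulated and 0 downregulated, against 31% and 10.2% of all genes. Replicates of both groups were close, so many differences inside the limit on the fold change had a small error. With no limit on the fold change, a setting added after the data were seen, 35 genes were higher and 5 lower at an adjusted p below 0.05, against 34.5% and 31.5% of all genes.

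The genes that rose most in S441L were the paralogs *cyb-2.1* and *cyb-2.2*, which together stood at 6.59, 7.67 and 7.23 CPM in S441L, against 3.35, 2.89 and 2.90 CPM in WT batch 1. The groups did not overlap, and the log2 fold changes of the genes were 1.59 ± 0.21 SE (adjusted p = 2.06e-05) and 1.05 ± 0.17 SE (adjusted p = 0.00013). The CENP-C gene *hcp-4* stood at 17.8, 17.2 and 17.0 CPM in S441L, against 7.62, 9.02 and 8.96 CPM in WT batch 1 (1.04 ± 0.082 SE, adjusted p = 1.59e-07). The kinase gene *air-1* rose by 0.93 ± 0.15 SE (adjusted p = 0.000113) and the bundler gene *spd-1* by 0.92 ± 0.11 SE (adjusted p = 5.64e-06). The other 8 were *mcm-2*, *plk-1*, *fzy-1*, *knl-1*, *knl-2*, *knl-3*, *hcp-6* and *sas-5*, with log2 fold changes from 0.51 to 0.63.

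The single downregulated gene in S441L was *spd-2*, which recruits pericentriolar material to centrosomes. It stood at 23, 26.1 and 24.2 CPM in S441L, against 34.2, 38.2 and 35.5 CPM in WT batch 1, with no overlap (log2 fold change -0.55 ± 0.061 SE, adjusted p = 4.27e-06). In P183L the same gene was upregulated, at 85.2, 84.7 and 86.0 CPM (1.16 ± 0.047 SE, adjusted p = 9.69e-11). The cyclins that rose most in P37Stop had small values in S441L against WT batch 1. *cyb-3* stood at 43.1, 44.1 and 42.3 CPM in S441L, against 38.3, 36.8 and 36.5 CPM in WT batch 1 (0.22 ± 0.046 SE). Against WT batch 2, where *cyb-3* was lower than in WT batch 1, its value in S441L was 1.27 (adjusted p = 0.000886 in edgeR) and passed the test. The inhibitor gene *cki-2* was higher in every S441L library, at 37.6, 32.9 and 34.8 CPM, against 25.8, 25 and 25 CPM in WT batch 1, but its log2 fold change of 0.48 ± 0.058 SE (adjusted p = 8.59e-06) was inside the limit, and *cki-1* had -0.08 ± 0.067 SE. Without 1 library, *mcm-2* (0.47 to 0.49, without WT batch 1 replicate 1 or 2 or S441L replicate 3), *knl-3* (0.49, without S441L replicate 1) and *sas-5* (0.43 and 0.42, without WT batch 1 replicate 2 or S441L replicate 3) left the called genes, and *cki-2* joined them at 0.53 without S441L replicate 2.

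By their calls in the mutants, 7 genes were upregulated in P37Stop, P183L and S441L, namely *air-1*, *plk-1*, *fzy-1*, *knl-3*, *hcp-4*, *hcp-6* and *sas-5*. Another 17 were upregulated in P37Stop and P183L, 6 in P183L and S441L, and 25 in P183L alone. P183L and S441L share their WT libraries, so these counts are not from independent comparisons, and a gene called in 1 mutant and not in another was not thereby shown to differ between them. The differences themselves were tested next.

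Set against each other, 57 of the 59 genes were higher in P183L than in S441L and 1 was lower, against 38.1% and 40.4% of all 16127 genes tested. The median log2 difference was 3.08. *mcm-7* had the highest, at 567, 562 and 571 CPM in P183L, against 26, 27.4 and 25 CPM in S441L (4.42 ± 0.035 SE, adjusted p = 2.55e-20). The gene that was lower in P183L was *cki-2*, at 21.2, 23.4 and 22.8 CPM in P183L, against 37.6, 32.9 and 34.8 CPM in S441L (-0.66 ± 0.056 SE, adjusted p = 2.43e-08). Of these libraries, every one of P183L stood below every one of S441L.

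The P37Stop effect exceeded the S441L effect in 21 genes and was below it in 3, against 17.1% and 13.6% of all 17180 genes tested in a fit of all libraries. The difference was greatest for *cyb-3* (2.01 ± 0.28 SE, adjusted p = 2.95e-05), *cyb-1* (1.81 ± 0.28 SE, adjusted p = 9.21e-05), *hcp-3* (1.49 ± 0.15 SE, adjusted p = 1.55e-06) and *fzy-1* (1.38 ± 0.28 SE, adjusted p = 0.000984). The 3 in which the P37Stop effect was below were *spd-5* (-0.61 ± 0.11 SE, adjusted p = 0.000356), *cki-2* (-0.55 ± 0.11 SE, adjusted p = 0.000574) and *cye-1* (-0.51 ± 0.19 SE, adjusted p = 0.0379). For the kinase genes *air-1* and *plk-1* the differences were 0.06 ± 0.27 and 0.01 ± 0.20 SE. Leaving out 1 library gave 14, without WT batch 2 replicate 3, to 20 genes above, and 2 to 5 below, the 5 without WT batch 2 replicate 2. The P37Stop effect was below the P183L effect in 56 genes and above it in 0, against 29.3% and 35.6% of all genes. At an unadjusted p below 0.05 in edgeR 57 were below and 0 above. DESeq2 called the same numbers, against 32% and 34.7% of all genes. The median difference was -2.45, and the 3 genes that were not called were *cdk-2*, *cki-2* and *bir-1*. These comparisons run between batches, so that allele and batch cannot be told apart in them.

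**Figure D3:**
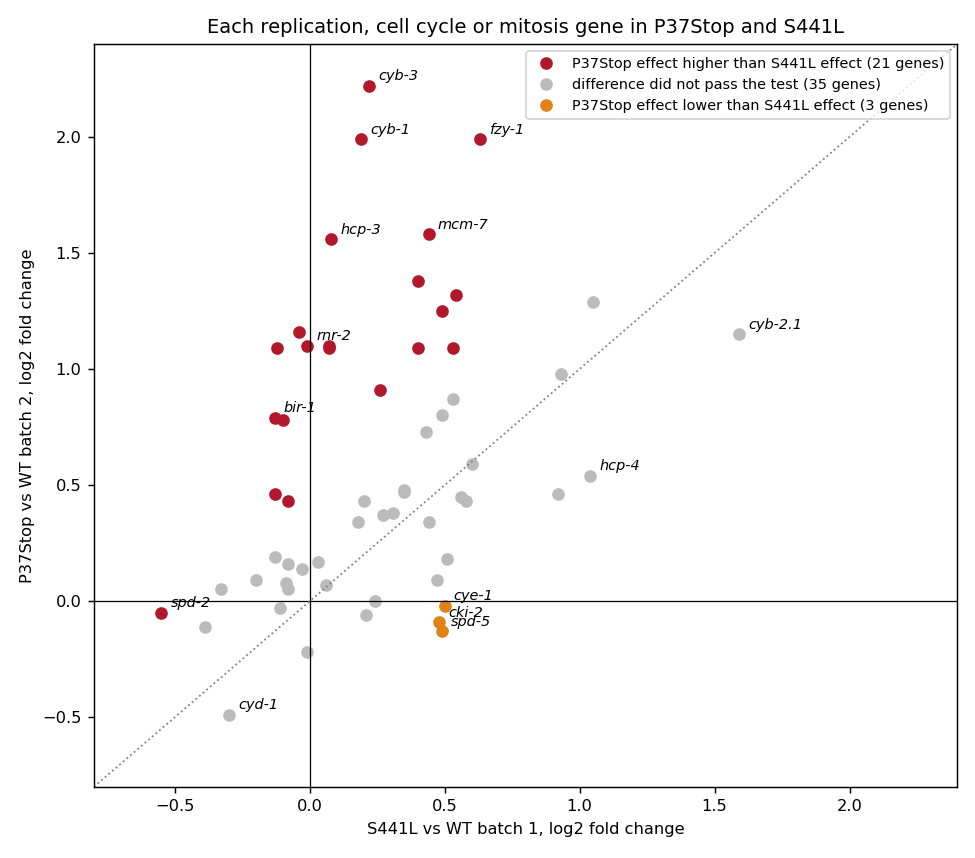
Log2 fold change of each of the 59 genes in P37Stop against WT batch 2 (y axis) and in S441L against WT batch 1 (x axis), with the line of equal effects dotted. Points are coloured by the test of the difference between these effects, with 21 genes above, 35 that did not pass and 3 below. *cyb-3*, *cyb-1* and *hcp-3* lie farthest above the line, and *spd-5*, *cki-2* and *cye-1* lie below it.

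The WT groups differed from each other in some of these genes. Batch and any difference of strain between the WT groups cannot be told apart. In WT batch 2, 9 of the 59 were higher than in WT batch 1 and 2 were lower, against 18.6% and 14.3% of all 15408 genes tested, and the median difference was 0.07. The 2 lower genes were *cyb-3*, at 26, 15.5 and 11.6 CPM in WT batch 2, against 38.3, 36.8 and 36.5 CPM in WT batch 1 (log2 difference -1.01 ± 0.21 SE, adjusted p = 0.00179), and *cyb-1* (-0.66 ± 0.22 SE, adjusted p = 0.0248). The higher ones were *mcm-2*, *mcm-3*, *mcm-6*, *rnr-1*, *cyb-2.1*, *air-1*, *plk-1*, *knl-3* and *spd-5*. Without WT batch 2 replicate 1, whose level was the highest of its group in most of these genes, the counts were 4 higher and 3 lower. Without WT batch 1 replicate 3, WT batch 2 replicate 2 or WT batch 2 replicate 3 only 1 gene was lower. Set against the WT group of the other batch, P37Stop had 33 upregulated genes of the 59, where 22.7% of all genes were called, and in S441L the genes *air-1*, *cyb-2.1*, *cyb-2.2* and *spd-2* were no longer called, at 0.22, 0.53, 0.56 and -0.33, while *mcm-2*, *plk-1* and *knl-3* stood at -0.24, -0.07 and -0.05. Other calls also moved by more than 1.5 times with the other WT group. In P37Stop *cyb-3* went from 2.22 to 1.1, *cyb-1* from 1.99 to 1.24, and *him-10* from 0.91 to 0.47, where it was no longer called. The rest in P37Stop were *air-1* (1.62), *plk-1* (1.19), *air-2* (0.79), *bir-1* (0.51), *knl-3* (1.38), *hcp-6* (0.68) and *cyk-4* (0.73). In S441L they were *hcp-6* (0.88) and *spd-1* (0.56). In S441L *cyb-3* went from 0.22, not called, to 1.27, where it was called.

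Another 107 genes of replication, cell cycle control, the DREAM complex, chromosomes and the spindle were read alongside. In P37Stop 35 of 106 tested (33%) were upregulated and 0 downregulated by edgeR, against 12.7% and 5.9% of all genes. The median log2 fold change was 0.29, and at an unadjusted p below 0.05 in edgeR, 56 were above 0 and 1 below. Of the 30 other replication genes 11 rose, and of the 24 other cell cycle control genes 3. Among those called without overlap between the groups, the highest was *kbp-1*, a kinetochore gene. It stood at 4.81, 11.7 and 8.69 CPM in P37Stop, against 2.71, 1.62 and 1.08 CPM in WT batch 2 (2.28 ± 0.39 SE, adjusted p = 0.00174). Next among them were the origin-firing kinase gene *cdc-7* (1.90 ± 0.49 SE, adjusted p = 0.0156) and the gene of the Cdk1-activating phosphatase *cdc-25.2* (1.79 ± 0.15 SE, adjusted p = 2.84e-05).

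In P183L 97 of these 107 (90.7%) were upregulated and 0 downregulated by edgeR, against 40.2% and 40.2% of all genes. The median was 2.05, and at an unadjusted p below 0.05 in edgeR, 102 were above 0 and 4 below. The kinetochore gene *hcp-1* stood at 281, 285 and 282 CPM in P183L, against 12, 11.9 and 9.88 CPM in WT batch 1 (4.57 ± 0.064 SE, adjusted p = 6.54e-15), and the replisome gene *ctf-4* rose by 4.48 ± 0.062 SE (adjusted p = 5.68e-15). In S441L 26 of 106 were upregulated and 2 downregulated, close to the 24.2% of all genes that were upregulated there, with a median of 0.04. At an unadjusted p below 0.05, 37 of them were above 0 and 35 below. The highest in S441L were *ani-2*, an anillin-like gene of the germline (1.69 ± 0.14 SE, adjusted p = 2.65e-07), and *klp-18*, a kinesin gene of the oocyte meiotic spindle (1.63 ± 0.12 SE, adjusted p = 1.19e-07). The 2 that fell were the formin gene *cyk-1* (-0.78 ± 0.041 SE, adjusted p = 2.7e-09) and the anaphase-promoting complex gene *apc-11* (-0.75 ± 0.079 SE, adjusted p = 2.55e-06).

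Markers of other cells and stages were set beside these genes. Of all genes tested, 12.7% were upregulated and 5.9% downregulated in P37Stop, 40.2% and 40.2% in P183L, and 24.2% and 15.8% in S441L. Of the maternal and oocyte markers, 13 of 19 tested were upregulated in P37Stop, and the summed level of the 21 listed was 139 to 283 CPM in P37Stop, against 67.1 to 123 CPM in WT batch 2. In P183L 19 of 19 tested were upregulated, with a sum of 955 to 964 CPM, and in S441L 18 of 19, with a sum of 181 CPM in each library, against 89.9 to 94.8 CPM in WT batch 1. The most abundant of them, *pos-1*, averaged 39.5 CPM in P37Stop and 9.23 CPM in WT batch 2, and 160 CPM in P183L and 26.4 CPM in S441L, against 12.4 CPM in WT batch 1. Germline markers were upregulated in 5 of 12 in P37Stop, 11 of 12 in P183L and 10 of 12 in S441L. The germline sums were 165 to 238 CPM in P37Stop and 140 to 192 CPM in WT batch 2, and 466 to 475 CPM in P183L and 181 to 188 CPM in S441L, against at most 122 CPM in WT batch 1.

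Genes first transcribed in the early embryo were read as well, against the same shares of all genes. In P37Stop 3 of 9 tested were upregulated, with a sum of the 14 listed of 27.9 to 43.4 CPM, against 15.7 to 17.8 CPM in WT batch 2. In P183L 11 of 13 tested were upregulated and 1 was downregulated, with a sum of 179 to 184 CPM, and in S441L 0 of 9 were upregulated and 2 were downregulated in edgeR, and likewise at an unadjusted p below 0.05, with a sum of 21.7 to 22.9 CPM, against 21.8 to 24.0 CPM in WT batch 1. The most abundant, *sdz-28*, averaged 10.2 CPM in P37Stop and 1.77 CPM in WT batch 2, and 90.3 CPM in P183L and 3.20 CPM in S441L, against 3.54 CPM in WT batch 1. *med-1* and *hlh-25* were at 0 in all libraries of both WT groups.

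Markers of differentiated tissues moved in either direction in P183L, where 40.2% of all genes were upregulated and 40.2% downregulated. Body wall muscle markers summed to 2210 to 2310 CPM in P183L, with 4 of 5 downregulated and 1 upregulated, against 16300 to 18600 CPM in WT batch 1. In S441L they summed to 13600 to 14000 CPM, with 0 of 5 upregulated, 0 downregulated and a median log2 fold change of -0.09. Intestine markers summed to 656 to 664 CPM in P183L, with 4 of 5 downregulated, against 11000 to 12700 CPM in WT batch 1, and neuron markers to 376 to 381 CPM, with 6 of 6 downregulated, against 2410 to 2530 CPM. Epidermis markers summed to 810 to 827 CPM in P183L, with 4 of 6 upregulated and 1 downregulated, against 358 to 390 CPM in WT batch 1. Seam cell markers summed to 252 to 265 CPM in P183L, with 2 of 4 tested upregulated and 1 downregulated, against 63.9 to 67.5 CPM in WT batch 1. Pharynx markers summed to 420 to 427 CPM in P183L, with 2 of 4 upregulated and 2 downregulated, against 447 to 488 CPM in WT batch 1. In S441L 3 of 4 pharynx markers were upregulated, with a sum of 651 to 671 CPM. Of the 4 seam cell markers tested in S441L, 2 were upregulated and 1 was downregulated, with a sum of at most 125 CPM. Neuron markers summed to 1250 to 1270 CPM in S441L, with 1 of 6 downregulated, against 2410 to 2530 CPM in WT batch 1. Their log2 fold changes in S441L ran from -1.53 to 0.29, with a median of -0.29. In P37Stop 4 of 5 intestine markers were downregulated, with a sum of 4180 to 4570 CPM, against 6650 to 8110 CPM in WT batch 2, and 0 of 6 neuron markers were, with 3 below 0 at an unadjusted p below 0.05. Of the pharynx markers 2 of 4 were downregulated in P37Stop, with a sum of 1200 to 1320 CPM, against 2090 to 2420 CPM in WT batch 2, and of the body wall muscle markers 1 of 5, with 10400 to 12200 CPM, against 14300 to 15800 CPM. Sperm markers stayed below 5 CPM in sum in every library, with *msp-3*, *msp-10* and *msp-77* at 0 in all 5 groups. The part of these cell and stage markers in the levels of the replication, cell cycle and mitosis genes was not tested, and in whole animals more cells of a dividing kind and more RNA per cell cannot be told apart.

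**Figure D4:**
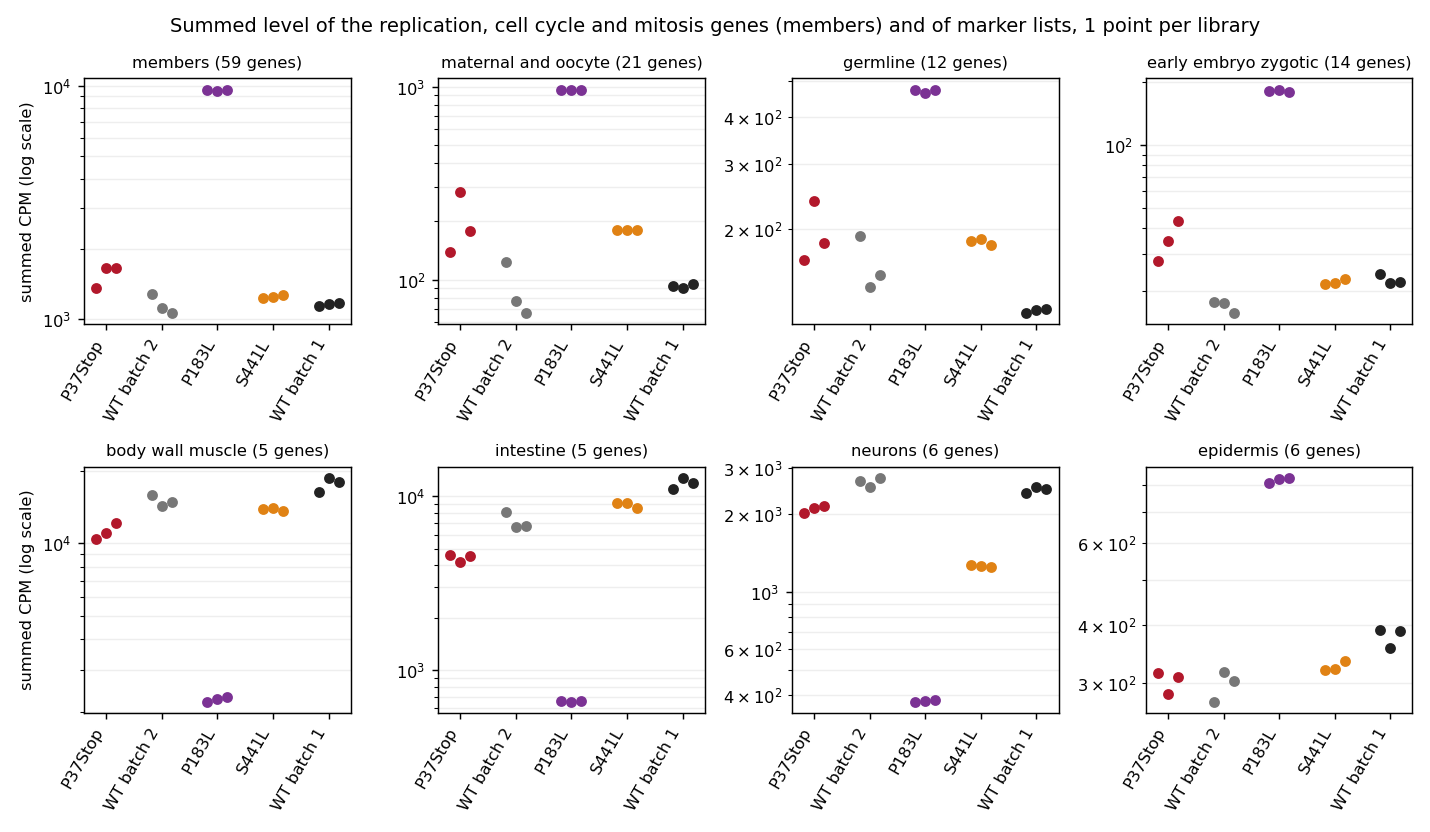
Summed CPM (y axis, log scale) of the 59 genes (members) and of 7 marker lists in each library (points) of P37Stop, WT batch 2, P183L, S441L and WT batch 1 (x axis). The 59 genes summed to 1360 to 1660 CPM in P37Stop, against 1060 to 1280 CPM in WT batch 2, and to 9540 to 9630 CPM in P183L and 1230 to 1260 CPM in S441L, against 1140 to 1170 CPM in WT batch 1. Maternal, germline, early embryo and epidermis lists were highest in P183L, and muscle, intestine and neuron lists lowest there.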

How the data were processed

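By the authors' account, read pairs passed through fastp and were mapped to ce11 by STAR and also by Salmon, with Picard for duplicate removal and HTSeq for counting. Deposited values are expected counts per gene, neither scaled nor filtered, and which of these routes made them is not given in the sources used here. Of its values 3.7% are not whole, and all were rounded to whole numbers. The last row, which names no gene and whose values add up to 100% of the total of S441L replicate 3, was left out.

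Genes were kept by filterByExpr (minimum count 10), scaled by TMM and tested with edgeR 4.0.16's quasi-likelihood test (R 4.3.3) with Benjamini-Hochberg adjustment over all genes tested, in a fit per comparison. Differences between effects were contrasts in a fit of 15 libraries and 5 groups. The SE is the log2 fold change divided by the square root of F. TPM used exon lengths of Ensembl release 115 on WBcel235, another name of ce11, which matched 46857 gene IDs. DESeq2 1.42.0 was an alternative.

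The 59 genes and all other lists were chosen with earlier results of these data known. Genes named outside the 59 are, per mutant, among the 3 highest and 3 lowest called without overlap, and the most abundant or absent markers, except that of the lists only those bearing on a result are named. The listed names *cdc-45*, *pold-1*, *smc-1*, *lsy-6* and *elt-5* matched no ID. Replicates came from separate plates, and no libraries agreed within sampling noise (chi-square per degree of freedom 3.19 to 50.4). Same-numbered libraries of compared groups did not deviate together (r from -0.1 to 0.1), so numbers were not treated as pairs. Alternatives were DESeq2, its size factors, total counts, no count filter, a replicate block, leaving out each library, the WT group of the other batch and no limit on the fold change. No sequences of these genes were used here.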

Additional observations from a re-analysis of the deposited data

Results flagged for a closer look

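The effects of the mutants were set against each other by a test of the difference itself in edgeR, and 58, 24 and 56 of the 59 genes differed in the comparisons below. Of all genes tested, 12653 of 16127, 5274 of 17180 and 11160 of 17180 differed in the same comparisons. Between the mutants grown side by side, 57 of the 59 genes were higher in P183L than in S441L and 1 was lower, against 38.1% and 40.4% of all genes. The extremes were *mcm-7*, with a log2 difference of 4.42 (adjusted p = 2.55e-20), and *cki-2*, with -0.66 (adjusted p = 2.43e-08). In both, each of the 3 libraries of P183L lay on the same side of each of the 3 libraries of S441L.

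The P37Stop effect was above the S441L effect in 21 genes and below it in 3, against 17.1% and 13.6% of all genes. The extremes were the mitotic cyclin gene *cyb-3*, at 2.01 (adjusted p = 2.95e-05), and the pericentriolar scaffold gene *spd-5*, at -0.61 (adjusted p = 0.000356). The P37Stop effect was below the P183L effect in 56 genes and above it in 0, against 29.3% and 35.6% of all genes, with *knl-1* at -3.76 (adjusted p = 1.7e-10).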

How the results depend on the processing

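The higher count of upregulated genes in P37Stop than the share of all genes held under every alternative run, from 18 to 37 of 59, and 8 of its 24 calls were lost when some single library was left out. In P37Stop total counts gave 37 upregulated, and DESeq2, its size factors, the replicate block and no limit on the fold change each gave 1 downregulated in place of 0. In S441L total counts gave 26 upregulated and 0 downregulated, the other WT group 0 downregulated, and no limit on the fold change 35 and 5. No limit on the fold change also gave 1 lower in P183L and 5 lower in WT batch 2 than in WT batch 1, and total counts gave 0 lower in P183L than in S441L. With 1 library left out, upregulated and downregulated genes ranged over 18 to 29 and 0 to 1 in P37Stop, 56 to 56 and 0 to 0 in P183L, 12 to 15 and 1 to 1 in S441L, 56 to 58 and 1 to 1 in P183L against S441L, 4 to 10 and 1 to 3 in WT batch 2 against WT batch 1, 14 to 20 and 2 to 5 for the P37Stop against the S441L effect, and 0 to 0 and 56 to 57 for the P37Stop against the P183L effect. The replicate block gave 24 upregulated in P37Stop, 56 in P183L and 14 in S441L.

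Over the alternatives run, the sign turned in 17 of the 59 genes in P37Stop, 1 in P183L and 24 in S441L. Of called genes it turned in *mcm-2* (-0.24), *plk-1* (-0.07) and *knl-3* (-0.05), in S441L against WT batch 2. The other values printed are of genes that were not called, and for S441L they cover only genes that the report describes or that were uncalled in P183L. In P37Stop total counts gave *mcm-6* 0.17, *cdk-4* 0.11, *cye-1* 0.20, *cki-2* 0.13, *mdf-1* 0.19, *klp-7* 0.00, *spd-2* 0.16 and *spd-5* 0.09. WT batch 1 gave P37Stop values of 0.42 for *mcm-6*, -0.06 for *orc-2*, -0.14 for *cdk-2*, 0.02 for *cye-1*, 0.01 for *cki-2*, -0.14 for *smc-4*, -0.26 for *mix-1*, -0.19 for *capg-1* and 0.30 for *spd-5*. *dpl-1* stood at -0.01 with DESeq2 or its size factors and at 0.00 with no count filter or the replicate block. With 1 library left out, P37Stop values ran over -0.05 to 0.37 for *mcm-4*, -0.20 to 0.13 for *mcm-6*, 0.00 to 0.25 for *rnr-1*, -0.02 to 0.29 for *cdk-2*, -0.29 to 0.05 for *cdk-4*, -0.15 to 0.13 for *cye-1*, -0.08 to 0.05 for *dpl-1*, -0.09 to 0.01 for *mdf-1*, -0.24 to 0.07 for *spd-2* and -0.09 to 0.17 for *zyg-1*. In P183L *cki-2* was at 0.24 with total counts. In S441L total counts gave *cki-1* 0.11 and *klp-7* 0.18, and *klp-7* ran over -0.06 to 0.01 with 1 library left out. The cause was not tested. Counting error bears on scarce genes such as *cyb-2.1*.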
